A study of Arabidopsis thaliana with 24 samples.

Results

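In detached Arabidopsis leaves kept in the dark, 82 transcripts of the 32627 measured fell steeply in the cytokinin mutant ahk3/ore12 and in the wild type Col but much less in the ethylene-insensitive mutant ein2/ore3. They were chosen on mean log2 microarray values, as the change between 0 and 3 days after dark treatment (DAT): a fall of at least 2 in ahk3/ore12 and in Col, and a change in ein2/ore3 higher than each of these by at least 1.5. Of the 767 genes that fell by at least 2 in both ahk3/ore12 and Col, the 82 made up 10.7%. The 12 arrays of 0 and 3 DAT chose the set, so their values are a description. Tests compare only the 12 arrays of 1 and 2 DAT, but their estimate of the spread came from all 24 arrays.

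The study followed dark-induced leaf senescence in 3 genotypes: ein2/ore3 (allele ein2-44/ore3-1), which does not respond to ethylene, ahk3/ore12 (allele ore12-1), a gain-of-function form of a cytokinin receptor, and Col, the Columbia-0 wild type. Each genotype was sampled at 0, 1, 2 and 3 DAT with 2 biological replicates, which gave 24 one-colour arrays. Leaves 3 or 4 of plants aged 21 days, 12 days after leaf emergence, were cut off and floated on 3 mM MES without light. The plants had grown under 16 h of light and 8 h of dark. Each mutant is 1 allele, the tissue is a detached whole leaf, and fewer cells of a type and less RNA per cell cannot be told apart in such bulk samples.

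Ethylene is perceived by receptors that act through the kinase CTR1 and the membrane protein EIN2, whose signal stabilises the transcription factors EIN3 and EIL1, and leaves without EIN2 function stay green longer. Cytokinin, perceived by AHK3 and related receptors, delays leaf yellowing. Some of the 82 transcripts belong to families tied to organ growth. SAUR proteins (SMALL AUXIN UP RNA) are products of fast auxin-induced genes, of which the SAUR19 subfamily raises proton pumping at the plasma membrane, and expansins loosen the acidified cell wall.

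Whole-series checks were as follows. Array medians lay between 9.02 and 9.16 on the log2 scale, except 8.91 for ein2/ore3 at 2 DAT replicate 2. The EIN2 transcript itself had 13.42 in ein2/ore3 and 13.56 in Col at 2 DAT, which does not bear on the allele. At that time 7 of 12 ethylene signalling genes were lower in ein2/ore3 than in Col (limma, false discovery rate (FDR) 0.05), where 9.9% of all genes were lower. The 7 included the receptor gene ETR2, lower by 4.55 on the log2 scale. All 6 senescence markers were also lower in ein2/ore3 than in Col at 2 DAT. In ahk3/ore12, 4 of the 6 were lower than in Col, where 3.16% of all genes were lower. The 5 leaf mesophyll markers summed to 18.2 on the log2 scale in each genotype at 0 DAT, and to 17.5 in ein2/ore3, 17.5 in ahk3/ore12 and 16.9 in Col at 2 DAT.

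At 0 DAT the genotypes started from similar levels: the median log2 level of the members was 11.43 in ein2/ore3, 11.42 in ahk3/ore12 and 11.56 in Col. In ein2/ore3 the median change from 0 DAT was -0.24 at 1 DAT, -0.74 at 2 DAT and -0.84 at 3 DAT. In ahk3/ore12 it was -2.05, -2.23 and -3.06 at the same times, and in Col -2.72, -3.89 and -4.15. Maintenance in ein2/ore3 was partial, since 35 members were at least 1 lower at 3 DAT than at 0 DAT, 12 were at least 2 lower, and 10 were above their 0 DAT level.

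**Figure D1:**
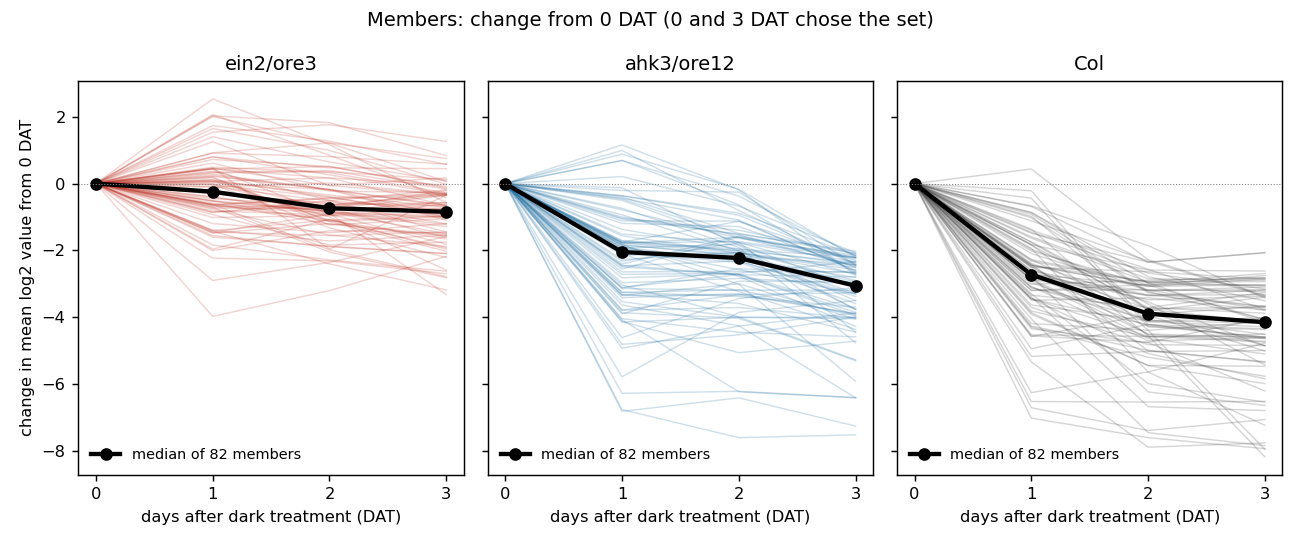
Change in mean log2 value (2 arrays per point) since 0 DAT for each of the 82 members (thin lines) in ein2/ore3, ahk3/ore12 and Col, against days after dark treatment, with the median in black. The medians at 3 DAT are -0.84 in ein2/ore3, -3.06 in ahk3/ore12 and -4.15 in Col, and the end points chose the set.

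The fall in Col came early. At 1 DAT, 58 members had completed at least 50% of their Col fall, the median being 67.1%, and 8 had completed under 25%. At 3 DAT, 2 members in ein2/ore3, 25 in ahk3/ore12 and 45 in Col lay under the 25th percentile of their arrays (6.72 to 7.09 on the log2 scale), near the dim end of the array, so a further fall of such genes may not be visible. Replicates of the members differed by a median of 0.29 in ein2/ore3, 0.38 in ahk3/ore12 and 0.28 in Col. The margin of 1.5 was met in each replicate number alone by 67 of the 82.

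Part of the margin came from the starting level in a few genes. The mean of ein2/ore3 at 0 DAT was at least 0.5 under Col in 9 members and at least 0.5 over it in 4, with a median difference of -0.09. The clearest case was AT3G59480, which had 7.11 and 6.47 in ein2/ore3, against 9.11 and 8.15 in ahk3/ore12 and 8.62 and 8.34 in Col at 0 DAT, and between 4.86 and 5.83 on every array of 1, 2 and 3 DAT. It met the rule by starting low, not by staying up, and was the 1 member that passed against Col at neither 1 nor 2 DAT.

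On the arrays the choice did not use, ein2/ore3 was above Col for nearly the whole set. At 1 DAT, 72 of 82 members were higher in ein2/ore3 and 0 were lower, where 9.64% of all genes tested were higher and 3.62% lower. At 2 DAT, 81 were higher and 0 lower, where 10.4% of all genes were higher and 9.9% lower. On single arrays, both ein2/ore3 values stood above both Col values in 80 members at 1 DAT (26.6% of all genes) and in 81 at 2 DAT (21.9% of all genes). The median log2 difference, ein2/ore3 minus Col, was 2.26 at 1 DAT and 3.22 at 2 DAT over the members, and -0.03 and -0.17 over all genes. Leaving out any 1 array gave between 65 and 74 members at 1 DAT and between 77 and 81 at 2 DAT.

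Against ahk3/ore12, 67 members were higher in ein2/ore3 at 1 DAT and 0 lower, where 7.02% of all genes were higher and 2.32% lower. At 2 DAT, 75 were higher and 0 lower, where 3.9% of all genes were higher and 6.47% lower. The median differences were 1.73 and 1.79 over the members and -0.05 and -0.11 over all genes. The 2 DAT count rested on 1 array: without ahk3/ore12 at 2 DAT replicate 1, 38 members passed. On single arrays, both ein2/ore3 values stood above all values of ahk3/ore12 and Col in 77 members at 1 DAT (19.0% of all genes) and in 79 at 2 DAT (9.99% of all genes).

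The other 685 genes that fell by at least 2 in ahk3/ore12 and Col, but with a smaller margin, had smaller differences on the arrays of 1 and 2 DAT. Against Col, 426 of them were higher in ein2/ore3 at 1 DAT and 371 at 2 DAT, with medians of 0.85 and 0.69. Against ahk3/ore12, 299 were higher and 6 lower at 1 DAT, with a median of 0.61, and 117 were higher and 43 lower at 2 DAT, with a median of 0.08. On single arrays, both ein2/ore3 values stood above both Col values in 558 of the 685 at 1 DAT and in 500 at 2 DAT. They stood above all values of ahk3/ore12 and Col in 496 at 1 DAT and in 235 at 2 DAT. The separation at 1 DAT was thus common among the genes that fell. The rule split the genes on the same contrast at 3 DAT, so no test of members against these genes is given.

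In ahk3/ore12 the members were not at the Col level at every time. At 1 DAT, 7 members were higher in ahk3/ore12 than in Col and 0 lower, where 0.325% of all genes were higher and 0.306% lower, with a median difference of 0.34 (0.03 over all genes). At 2 DAT, 48 were higher and 0 lower, where 8.85% of all genes were higher and 3.16% lower, with a median difference of 1.33 (-0.06 over all genes). Both ahk3/ore12 values stood above both Col values in 41 members at 1 DAT (18.6% of all genes) and in 71 at 2 DAT (28.3% of all genes). Many members thus stood above Col in ahk3/ore12 at 2 DAT, although they had fallen there. This was not particular to the members. Of the other 685 genes that fell, 321 (46.9%) were higher in ahk3/ore12 than in Col at 2 DAT and 5 lower. On single arrays, both ahk3/ore12 values stood above both Col values in 476 of the 685 at that time. The median change of the members from 0 DAT to 2 DAT was -2.23 in ahk3/ore12 and -0.74 in ein2/ore3. Of the 75 members that were higher in ein2/ore3 than in ahk3/ore12 at 2 DAT, 45 were also higher than Col in both mutants. The count of 48 was 24 without ahk3/ore12 at 2 DAT replicate 2 and 31 without Col at 2 DAT replicate 1, and the 7 at 1 DAT became 0 without either ahk3/ore12 array of that time, 1 without Col replicate 1 and 3 without Col replicate 2. By 3 DAT ahk3/ore12 exceeded Col by a median of 0.61, by at least 1 in 30 members, and was below Col in 12. The comparisons of the 2 mutants with Col share the Col arrays. The change between 1 and 2 DAT was higher in ein2/ore3 than in Col for 9 members and lower for 0, where 0.242% of all genes were higher and 0.362% lower. That count was 4 without Col replicate 1 at 2 DAT, Col replicate 2 at 1 DAT, either ein2/ore3 array of 1 DAT or ein2/ore3 replicate 2 at 2 DAT, and 5 without Col replicate 2 at 2 DAT.

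**Figure D2:**
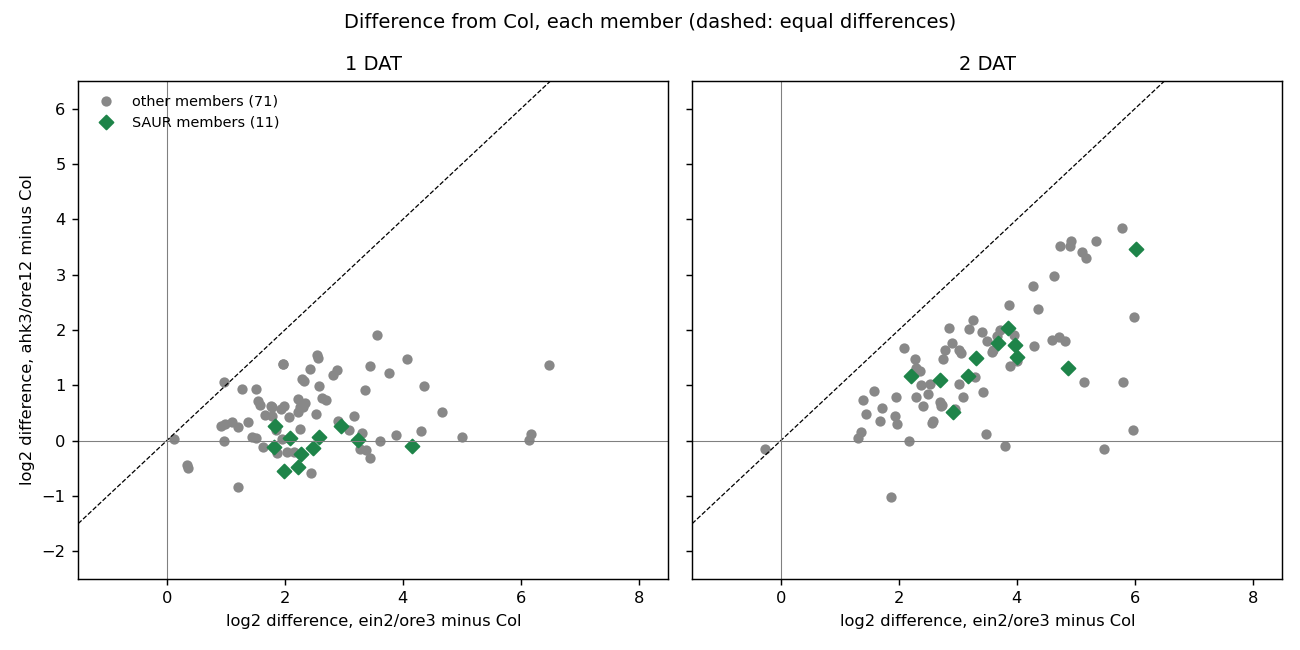
Fitted log2 difference from Col, with ein2/ore3 on the horizontal and ahk3/ore12 on the vertical axis, for each member at 1 and 2 DAT, with the 11 SAUR members as green diamonds and equal differences as a dashed line. At 1 DAT the medians are 2.26 for ein2/ore3 and 0.34 for ahk3/ore12, and at 2 DAT they are 3.22 and 1.33; both axes share the Col arrays.

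The member with the widest margin was AT2G27385, annotated as a pollen Ole e 1 allergen and extensin family protein. In ein2/ore3 its replicates read 13.86 and 13.45 at 0 DAT, 11.98 and 11.66 a day later, then 11.50 and 11.24, and 11.65 and 10.42 by 3 DAT. In ahk3/ore12 they read 13.80 and 13.58, then 6.91 and 6.85, 6.92 and 7.65, and 6.62 and 6.26. In Col they read 14.01 and 13.64, then 6.73 and 6.90, 6.09 and 6.37, and 6.10 and 5.70. The transcript lost most of its signal within 1 day in ahk3/ore12 and Col, and no value of these overlapped ein2/ore3 from 1 DAT on. At 1 DAT ein2/ore3 exceeded Col by 5.01 ± 0.33 (standard error of the fit, 2 arrays each; adjusted p = 3.16e-07) and ahk3/ore12 by 4.94 ± 0.33 (adjusted p = 3.95e-07).

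AT1G66100, a plant thionin, belongs to a class of small antimicrobial peptides. At 1 DAT it had 13.27 and 12.88 in ein2/ore3, against 7.11 and 6.81 in ahk3/ore12 and 7.35 and 6.54 in Col. At 2 DAT it had 12.01 and 11.46 in ein2/ore3, against 6.22 and 6.02 in ahk3/ore12 and 6.25 and 6.28 in Col. Its ein2/ore3 minus Col difference was 6.13 ± 0.47 at 1 DAT (adjusted p = 1.07e-06) and 5.47 ± 0.47 at 2 DAT (adjusted p = 1.6e-06). AT3G28220, a TRAF-like family protein, behaved alike, with 11.42 and 11.73 in ein2/ore3, against 5.47 and 5.57 in ahk3/ore12 and 5.35 and 5.46 in Col at 1 DAT. Its ein2/ore3 replicates had separated by 3 DAT, when replicate 2 stood at 7.84.

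The SAUR genes were the largest recognisable family, with 11 of the 82 members. On chromosome 5 these were SAUR19 (AT5G18010), SAUR20 (AT5G18020) and AT5G18030, which adjoin each other, SAUR23 (AT5G18060) and SAUR24 (AT5G18080) a few genes further on, and SAUR75 (AT5G27780) elsewhere. On chromosome 1 they were SAUR63 (AT1G29440), AT1G29450 and AT1G29460 in a row, and AT1G29500 and SAUR68 (AT1G29510) side by side. Neighbouring SAUR genes are similar in sequence and were read by short probes, and whether probes of 1 gene also read its neighbours was not tested, so the 11 are not independent of each other.

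SAUR23 went above its starting level in ein2/ore3, with 10.01 and 9.32 at 0 DAT, 11.75 and 11.63 a day later, then 11.64 and 11.33, and 10.36 and 10.64 by 3 DAT. In ahk3/ore12 it had 9.63 and 8.74, then 8.53 and 9.43, 7.98 and 9.88, and 5.95 and 7.55. In Col it had 10.05 and 9.30, then 9.25 and 9.67, 5.36 and 5.56, and 5.06 and 5.11. At 2 DAT the ein2/ore3 values stood above both others and the ahk3/ore12 replicates lay far apart. The difference of 6.03 ± 0.57 from Col at 2 DAT (adjusted p = 3.84e-06) was the largest of any member at that time. At 1 DAT it was 2.23 ± 0.57 (adjusted p = 0.0158), which was lost without Col replicate 1 or without either ein2/ore3 array (adjusted p up to 0.102).

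AT5G18030 had 11.19 and 11.16 in ein2/ore3, against 6.65 and 7.17 in ahk3/ore12 and 6.83 and 7.20 in Col at 1 DAT. Its ein2/ore3 values were thus still at the 0 DAT level of 11.15 and 10.46, while both others had dropped. The ein2/ore3 minus Col difference was 4.16 ± 0.40 at 1 DAT (adjusted p = 7.96e-06) and 4.87 ± 0.40 at 2 DAT (adjusted p = 1.15e-06). SAUR20, at 11.79 and 12.10 in ein2/ore3, against 9.30 and 10.76 in ahk3/ore12 and 7.84 and 8.70 in Col at 2 DAT, exceeded Col by 3.68 ± 0.55 (adjusted p = 0.000238). AT1G29460 had 8.81 and 8.46 in ein2/ore3, against 6.07 and 7.17 in ahk3/ore12 and 5.35 and 5.57 in Col at 2 DAT, and exceeded Col by 3.18 ± 0.39 (adjusted p = 4.63e-05). The 11 SAUR members all exceeded Col in ein2/ore3 at 2 DAT, by 2.20 (SAUR75) to 6.03 (SAUR23). Between ahk3/ore12 and Col, none of the 11 passed at 1 DAT, with differences of -0.55 (AT1G29460) to 0.26 (SAUR63), where 0.325% of all genes were higher. At 2 DAT, 8 of the 11 were higher in ahk3/ore12 than in Col, where 8.85% of all genes were, among them SAUR23 by 3.47 (adjusted p = 0.000944) and SAUR24 by 2.04 (adjusted p = 0.00584). Of these 8 calls, 7 (all but SAUR23) were lost without ahk3/ore12 replicate 2 and the same 7 without Col replicate 1 at 2 DAT.

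Not every SAUR gene that fell met the rule. Of 79 SAUR genes measured, 21 fell by at least 2 in ahk3/ore12 and Col, so 10 of those were not members. SAUR15 fell by 4.05 in ein2/ore3, by 4.22 in ahk3/ore12 and by 4.15 in Col between 0 and 3 DAT, and AT2G21210 fell by 4.59 in ein2/ore3, fell by 4.84 in ahk3/ore12 and fell by 4.83 in Col. Both were higher in ein2/ore3 than in Col at 1 DAT, by 0.87 (adjusted p = 0.0432) and 1.07 (adjusted p = 0.00132), but did not pass at 2 DAT. AT4G34760 missed the margin narrowly, at 1.415, and exceeded Col in ein2/ore3 by 3.675 at 2 DAT (adjusted p = 5.51e-07). Some SAUR genes outside the set thus shared part of the pattern. SAUR22 (AT5G18050), inside the chromosome 5 run, was no member because its ahk3/ore12 change was -1.41, but it exceeded Col in ein2/ore3 by 4.87 at 2 DAT (adjusted p = 5.56e-06). Over all 79, ein2/ore3 was higher than Col for 23 and lower for 10 at 2 DAT, with a median of 0.09.

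**Figure D3:**
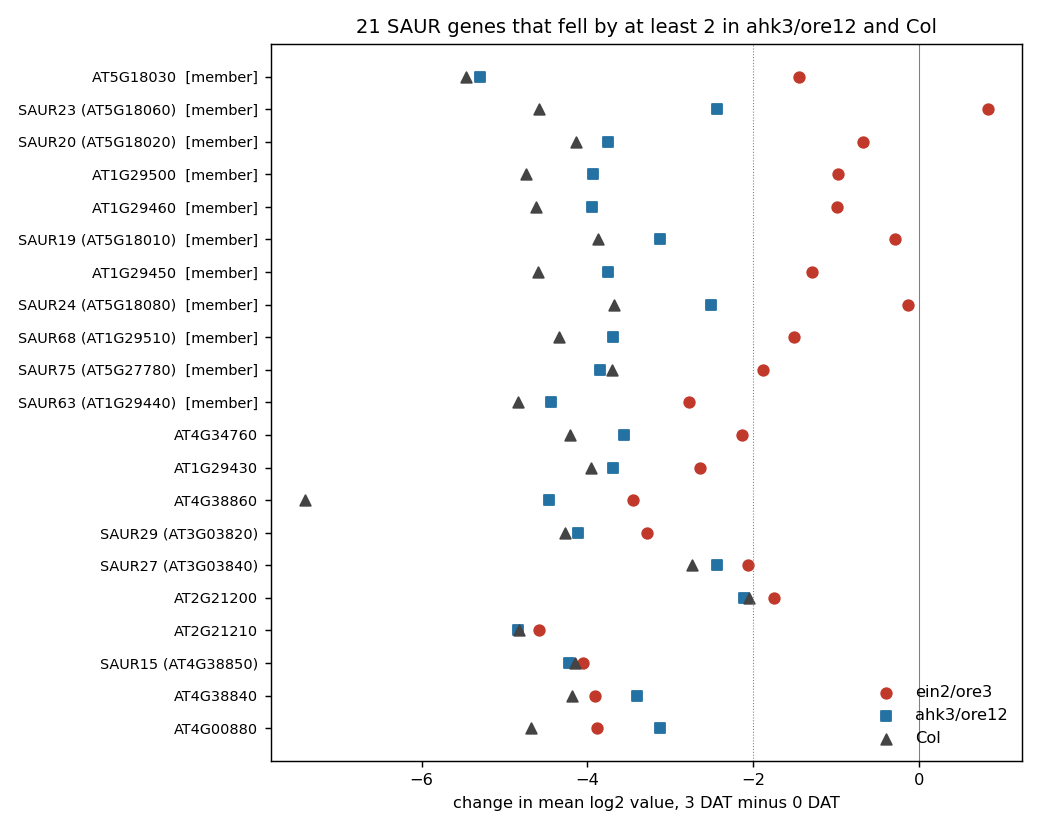
Change in mean log2 value between 0 and 3 DAT (horizontal, 2 arrays per mean) for the 21 SAUR genes that fell by at least 2 in ahk3/ore12 and Col, ordered by margin, with members marked. In the 11 members the ein2/ore3 points lie to the right of both others, whereas SAUR15 and AT2G21210 fell by more than 4 in all 3 genotypes; these arrays chose the members.

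Another 4 members act elsewhere in auxin biology, so that 15 of 160 auxin genes measured were members, out of 25 that fell in ahk3/ore12 and Col. Of the 160, 50 were higher and 14 lower in ein2/ore3 than in Col at 2 DAT, with a median of 0.09. IAA1, IAA19 and AXR3 (IAA17) encode Aux/IAA proteins, auxin-induced repressors of the auxin response, and LAX2 encodes an auxin influx carrier. IAA19 had 12.56 and 12.34 in ein2/ore3, against 9.90 and 9.82 in ahk3/ore12 and 8.51 and 8.25 in Col at 1 DAT. In ein2/ore3 this was above the 10.13 and 9.71 of 0 DAT, and by 3 DAT it was back at 9.52 and 9.19. Its ein2/ore3 minus Col difference was 4.07 ± 0.34 at 1 DAT (adjusted p = 2.24e-06) and 4.82 ± 0.34 at 2 DAT (adjusted p = 3.28e-07). LAX2 likewise stood at 11.70 and 11.26 in ein2/ore3, against 9.02 and 9.05 in ahk3/ore12 and 8.01 and 8.22 in Col at 1 DAT, 3.37 ± 0.34 above Col (adjusted p = 1.22e-05). AXR3 and IAA1 declined in all 3 genotypes and exceeded Col in ein2/ore3 at 2 DAT by 3.87 ± 0.40 (adjusted p = 9.19e-06) and by 3.18 ± 0.33 (adjusted p = 9.92e-06).

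RGF9 (AT5G64770) encodes a secreted peptide of the root meristem growth factor family. At 1 DAT it had 11.43 and 11.39 in ein2/ore3, against 9.77 and 9.75 in ahk3/ore12 and 7.99 and 7.72 in Col. At 2 DAT it averaged 11.08 in ein2/ore3, with 8.61 and 9.67 in ahk3/ore12, and 5.36 and 5.25 in Col. The 3 genotypes did not overlap at either time, with ahk3/ore12 between the others. It exceeded Col in ein2/ore3 by 3.56 ± 0.31 at 1 DAT (adjusted p = 4.04e-06) and 5.78 ± 0.31 at 2 DAT (adjusted p = 4.11e-08), and ahk3/ore12 exceeded Col by 3.84 ± 0.31 at 2 DAT (adjusted p = 5.06e-06).

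GASA6, a gibberellin-regulated peptide gene, held between 13.53 and 14.19 on all 8 ein2/ore3 arrays. In Col it fell by 8.17 between 0 and 3 DAT, the deepest Col fall in the set, while ahk3/ore12 fell by 2.38. At 2 DAT it had 14.19 and 13.95 in ein2/ore3, against 12.55 and 13.17 in ahk3/ore12 and 8.91 and 9.78 in Col, an ein2/ore3 minus Col difference of 4.73 ± 0.26 (adjusted p = 4.45e-08). KDR (KIDARI), a small helix-loop-helix protein that promotes elongation, had 11.09 and 10.57 in ein2/ore3, against 8.54 and 9.83 in ahk3/ore12 and 6.19 and 6.22 in Col at 2 DAT, 4.63 ± 0.35 above Col (adjusted p = 6.19e-07). MAKR6, of a family of membrane-associated kinase regulators, stood 3.02 ± 0.33 above Col in ein2/ore3 at 2 DAT (adjusted p = 1.54e-05). It was the only member on a list of 720 kinase and receptor genes, of which 17 fell in ahk3/ore12 and Col. That list was matched by name and can miss others.

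Of 263 cell wall genes measured, 23 fell in ahk3/ore12 and Col and 5 were members. Over the 263, ein2/ore3 was higher than Col for 66 and lower for 20 at 2 DAT, with a median of 0.02. EXPA8 and EXPA11 encode expansins, PRP4 a proline-rich wall protein, and AGP4 and FLA12 arabinogalactan proteins. EXPA8 had 11.91 and 11.99 in ein2/ore3, against 9.68 and 10.82 in ahk3/ore12 and 6.84 and 6.86 in Col at 2 DAT. EXPA11 had 12.96 and 12.67 in ein2/ore3, against 10.69 and 12.01 in ahk3/ore12 and 8.85 and 8.25 in Col at that time. In both, ahk3/ore12 lay between the others with its replicates more than 1 apart. The ein2/ore3 minus Col differences at 2 DAT were 5.10 ± 0.33 for EXPA8 (adjusted p = 1.43e-07) and 4.27 ± 0.34 for EXPA11 (adjusted p = 8.96e-07).

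The fall of PRP4 in Col was late. In ein2/ore3 it had 14.73 and 14.47 at 0 DAT, 14.99 and 14.77 a day later, then 14.64 and 14.21, and 14.0 and 13.29 by 3 DAT. In ahk3/ore12 it had 14.06 and 14.35, then 13.82 and 13.59, 12.29 and 12.60, and 9.76 and 9.77. In Col it had 14.51 and 14.40, then 13.04 and 13.15, 10.29 and 9.85, and 6.71 and 6.31. The genotypes separated without overlap from 1 DAT, and ein2/ore3 exceeded Col by 4.36 ± 0.23 at 2 DAT (adjusted p = 3.68e-08). AGP4 did not pass against ahk3/ore12, with 12.21 and 11.75 in ein2/ore3, against 11.09 and 12.01 in ahk3/ore12 and 9.98 and 9.79 in Col at 2 DAT, where the ein2/ore3 minus ahk3/ore12 difference was 0.43 ± 0.42 (adjusted p = 0.593). Members outside that list included 2 pectin lyase-like genes: AT5G48900, 5.34 ± 0.34 above Col in ein2/ore3 at 2 DAT (adjusted p = 1.24e-07), and AT4G24780, 3.05 ± 0.26 above it (adjusted p = 1.56e-06). GH9B8, of a glycosyl hydrolase family with endoglucanases, showed one of the 5 smallest differences from Col at 2 DAT, 1.44 ± 0.21 (adjusted p = 0.000178).

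**Figure D4:**
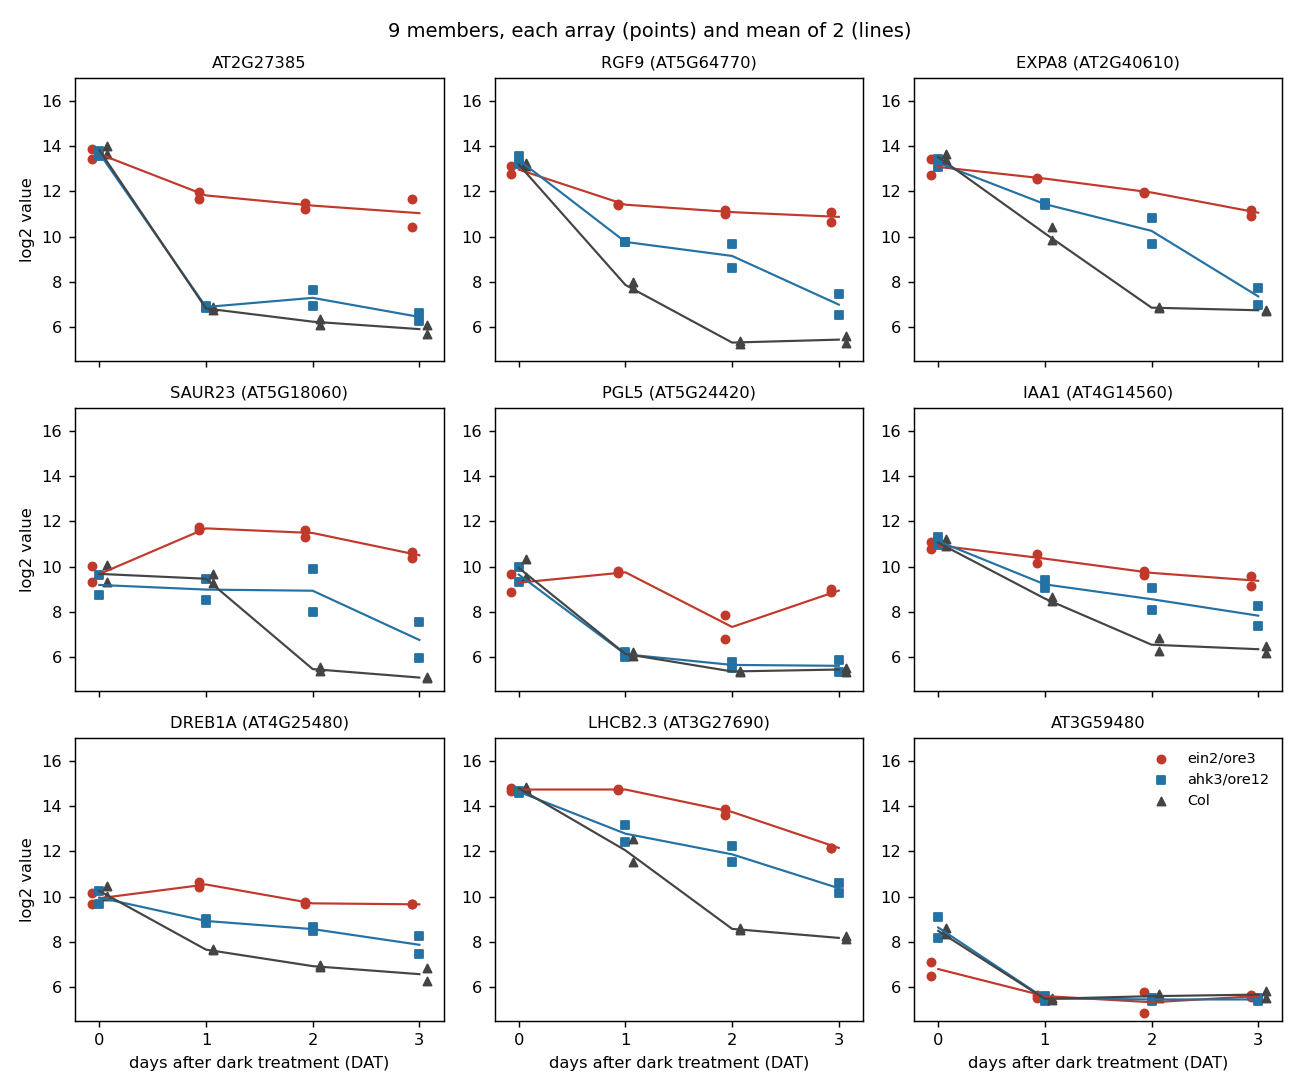
Log2 value on each array (points) and mean of 2 arrays (lines) against days after dark treatment for 9 members, in ein2/ore3 (red circles), ahk3/ore12 (blue squares) and Col (grey triangles). AT2G27385 and PGL5 dropped together in ahk3/ore12 and Col within 1 day, RGF9, EXPA8 and LHCB2.3 show ahk3/ore12 between the others at 2 DAT, and AT3G59480 was at 5.83 or lower in all 3 genotypes from 1 DAT.

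The next 3 members have known roles in the cold response; no list of cold genes was counted, so they do not stand for that group. GolS3 encodes a galactinol synthase, DREB1A (CBF3) a transcription factor that activates cold-responsive genes, and COR15B a chloroplast stromal protein that protects membranes in the cold. GolS3 had 13.06 and 12.98 in ein2/ore3, against 7.43 and 8.38 in ahk3/ore12 and 6.39 and 6.70 in Col at 1 DAT, having started at 11.11 and 10.81 in ein2/ore3. Its difference from Col, 6.48 ± 0.58 (adjusted p = 4.79e-06), was the largest of any member at 1 DAT. COR15B stood at 13.39 and 13.46 in ein2/ore3, against 9.28 and 10.85 in ahk3/ore12 and 8.53 and 9.62 in Col at 1 DAT, 4.35 ± 0.58 above Col (adjusted p = 0.00015). DREB1A stood at 10.64 and 10.43 in ein2/ore3, against 8.83 and 9.01 in ahk3/ore12 and 7.67 and 7.63 in Col, 2.89 ± 0.27 above Col (adjusted p = 5.67e-06). In all 3 the ein2/ore3 values at 1 DAT were above both others without overlap.

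Members from metabolism and transport followed several courses. PGL5, a phosphogluconolactonase of the pentose phosphate pathway, had 9.79 and 9.70 in ein2/ore3, against 6.0 and 6.23 in ahk3/ore12 and 6.22 and 6.04 in Col at 1 DAT, 3.62 ± 0.35 above Col (adjusted p = 8.98e-06). At 2 DAT ein2/ore3 had dipped to 7.87 and 6.78, and at 3 DAT it was at 9.01 and 8.86. SWEET13, a sucrose transporter, had 11.25 and 11.42 in ein2/ore3, against 6.90 and 7.51 in ahk3/ore12 and 6.78 and 7.27 in Col at 1 DAT, 4.31 ± 0.41 above Col (adjusted p = 7.28e-06). BGAL8, a beta-galactosidase, exceeded Col in ein2/ore3 by 3.89 ± 0.44 at 2 DAT (adjusted p = 2.14e-05). LUP1, which makes the triterpene lupeol, began lower in ein2/ore3, at 9.86 and 10.13 against 11.02 and 11.24 in Col, and had 11.75 and 11.76 in ein2/ore3, against 9.61 and 11.02 in ahk3/ore12 and 8.24 and 8.46 in Col at 2 DAT, 3.41 ± 0.42 above Col (adjusted p = 3.99e-05). It was the member whose ein2/ore3 level gained most by 3 DAT, 1.26 over 0 DAT.

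Of 80 defence genes on the list, 8 fell in ahk3/ore12 and Col and 0 were members, and 15 were higher and 8 lower in ein2/ore3 than in Col at 2 DAT, with a median of -0.05. The 3 members described next are not on that list. ESP, the epithiospecifier protein that steers glucosinolate breakdown towards nitriles, had 11.96 and 12.04 in ein2/ore3, against 7.86 and 8.36 in ahk3/ore12 and 8.30 and 8.12 in Col at 2 DAT. Its ein2/ore3 minus Col difference was 3.79 ± 0.19 (adjusted p = 2.25e-08), against -0.10 ± 0.19 for ahk3/ore12 minus Col (adjusted p = 0.776). At the same time PCC1, a gene under pathogen and circadian control, had 11.55 and 11.74 in ein2/ore3, against 6.42 and 7.41 in ahk3/ore12 and 6.0 and 5.70 in Col at 2 DAT, 5.80 ± 0.45 above Col (adjusted p = 7.64e-07), and ahk3/ore12 was 1.07 ± 0.45 above Col (adjusted p = 0.167). IGMT5, a methyltransferase of indole glucosinolates, was among the 5 smallest differences from Col at 2 DAT, 1.37 ± 0.28 (adjusted p = 0.00249).

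Of 272 chloroplast protein genes on the list, 57 fell in ahk3/ore12 and Col, but only LHB1B1 and LHCB2.3 of these were members. Both encode light-harvesting antenna proteins of photosystem II. The member COR15B is not on that list. LHCB2.3 had 13.88 and 13.61 in ein2/ore3, against 11.52 and 12.22 in ahk3/ore12 and 8.52 and 8.62 in Col at 2 DAT, 5.18 ± 0.30 above Col (adjusted p = 6.82e-08), with ahk3/ore12 3.30 ± 0.30 above Col (adjusted p = 1.04e-05). LHB1B1 had 15.04 and 14.95 in ein2/ore3, against 12.71 and 13.71 in ahk3/ore12 and 10.79 and 11.86 in Col, 3.67 ± 0.35 above Col (adjusted p = 3.84e-06). Photosystem and antenna genes at large were higher than Col in both mutants: of 34, 31 were higher than Col in ein2/ore3 at 2 DAT and 29 in ahk3/ore12, with medians of 0.97 and 0.87, and 2 were higher in ein2/ore3 than in ahk3/ore12. Lists with 0 members mostly had few genes that fell in ahk3/ore12 and Col at all: 9 of 122 lipid genes, 8 of 243 cytochrome P450 genes, 6 of 438 transporters, 3 of 13 chlorophyll synthesis genes, 2 of 67 ribosomal protein genes, 2 of 34 peroxidases, 1 of 14 glucosinolate synthesis genes, 1 of 65 cytokinin genes, and 0 of 12 ethylene signalling and 0 of 7 cell division genes. With 10.7% of falling genes being members, a count of 0 in such lists says little. The lists are also incomplete: the members SWEET13 and LAX2 are not on the transporter list.

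Of 751 transcription factor genes on the list, 15 fell in ahk3/ore12 and Col and 2 were members. The member DREB1A is not on that list. MYB16, which acts in epidermal cell shape and cuticle formation, had 11.77 and 11.78 in ein2/ore3, against 9.84 and 10.31 in ahk3/ore12 and 8.48 and 8.07 in Col at 2 DAT, 3.50 ± 0.23 above Col (adjusted p = 2.1e-07). RL6, a RADIALIS-like MYB gene, stood 2.42 ± 0.31 above Col (adjusted p = 6.85e-05). AT2G40130 (SMXL8), a repressor of strigolactone signalling, had one of the 5 smallest differences, 1.40 ± 0.19 (adjusted p = 0.0001). The remaining small one, AT3G57020, a calcium-dependent phosphotriesterase family gene, was 1.31 ± 0.32 above Col (adjusted p = 0.00989), a call lost without Col replicate 2 or ein2/ore3 replicate 2 at 2 DAT and with only the 12 arrays of 1 and 2 DAT (adjusted p up to 0.0795).

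Members outside the lists included further neighbouring pairs and genes of varied roles. AT2G43530 and AT2G43535, the second of a knottin family of small disulfide-rich proteins, adjoin each other on chromosome 2, and AT4G06534 and AT4G06536 adjoin on chromosome 4. At 2 DAT ein2/ore3 exceeded Col by 2.72 ± 0.32 in AT2G43530 (adjusted p = 2.96e-05) and by 3.26 ± 0.38 in AT2G43535 (adjusted p = 2.49e-05). The chromosome 4 pair exceeded Col by 3.60 ± 0.25 (AT4G06534, adjusted p = 2.77e-07) and 3.59 ± 0.38 (AT4G06536, adjusted p = 1.09e-05). AT14A, which has a near-identical neighbouring copy so that its signal is of uncertain origin, climbed in ein2/ore3 and had 12.12 and 12.24 there at 2 DAT, against 8.84 and 9.83 in ahk3/ore12 and 7.33 and 7.59 in Col. AT5G44680, of the DNA glycosylase superfamily, had 11.39 and 11.03 in ein2/ore3, against 9.67 and 10.14 in ahk3/ore12 and 6.29 and 6.29 in Col at 2 DAT. In that gene ahk3/ore12 was well above Col, by 3.62 ± 0.24 (adjusted p = 9.91e-07). TPPE, a trehalose-6-phosphate phosphatase, followed the same order, with 11.39 and 10.94 in ein2/ore3, against 10.02 and 10.68 in ahk3/ore12 and 8.24 and 8.38 in Col, and AT1G17200, of a Casparian strip membrane protein-like family, with 11.49 and 11.19, 10.17 and 10.24, and 8.57 and 8.32.

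Some members are known from particular cell types. All 5 mesophyll markers were higher in ein2/ore3 than in Col at 2 DAT, with a median difference of 0.70. Of 5 epidermis markers, 4 were higher in ein2/ore3 than in Col at 2 DAT, with a median difference of 1.03 and summed log2 levels of 15.9 in ein2/ore3, 15.4 in ahk3/ore12 and 14.8 in Col; the defining marker PDF1 was at about 6 throughout. All 4 xylem markers were higher, with a median of 1.74 and summed levels of 11.7, 10.5 and 10.1. Among the members, XCP2 encodes a protease of xylem vessels and FLA12 is known from secondary walls. XCP2 had 10.98 and 9.84 in ein2/ore3, against 9.56 and 9.88 in ahk3/ore12 and 8.97 and 8.69 in Col at 2 DAT, where ein2/ore3 and ahk3/ore12 overlapped and the difference from Col was 1.58 ± 0.48 (adjusted p = 0.03). That call was lost without ein2/ore3 replicate 1, without either Col array of 2 DAT, and with only the genotypes compared (adjusted p up to 0.165). Of 4 guard cell markers, OST1 was higher by 0.42 (adjusted p = 0.00651) and KAT1 lower by 0.82 (adjusted p = 0.00397) in ein2/ore3 than in Col at 2 DAT. Of 3 phloem companion cell markers, SUC2 was higher by 0.86 (adjusted p = 0.0212) and APL lower by 0.54 (adjusted p = 0.0197) in the same comparison. None of 3 trichome markers passed, with summed levels of 7.91 in ein2/ore3 and 7.92 in Col. Of 3 root markers, PYK10 was 4.2 higher in ein2/ore3 (adjusted p = 0.000516), while EXPA7 (-0.49) and SHV2 (0.0) did not pass. The part of cell type composition in the member differences was not tested.

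At the edge of the set, the members nearest the margin of 1.5 were FLA12 (1.51), AT4G16008 (1.53) and AT3G55580 (1.58). Just outside were AT4G30650 (1.46), GRP23 (1.46) and AT5G26220 (1.45). A margin of 1 would give 132 members and a margin of 2 would give 52, so the number is a matter of the threshold, and 57 of the 82 belonged to none of the functional lists.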

How the data were processed

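RNA of leaves was labelled with Cy3 and hybridised to 12-plex NimbleGen arrays designed on the TAIR9 annotation. The authors deposited linear intensity values per transcript variant, background-corrected, quantile-normalized and summarized by RMA, and a series table with log2 values per gene of the summed variants, which was used here without further normalization or filter. Means of 2 replicates gave the changes. The fit was a limma 3.58.1 model in R 4.3.3 with 12 group means over all 24 arrays, empirical Bayes moderation and Benjamini-Hochberg adjustment over 32627 genes for each of 7 comparisons, at FDR 0.05. Errors are standard errors of that fit. Precision is limited by 2 arrays per condition. On simulated data for ein2/ore3 minus Col at 2 DAT over 32627 genes, 52 of 100 genes changed by 1 and 82 of 100 changed by 2 on the log2 scale were called, with 12 false calls.

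Each replicate number covers 12 arrays, and the sample titles do not say whether it marks a slide. Samples of the same number deviated together in 47 of 66 pairs of conditions (correlation over 0.1, median 0.30). A fit with the number as a block was therefore an alternative. Other alternatives were summed intensities, quantile normalization, median centring, omission of the dimmest 25% of genes, fewer arrays in the fit, FDR 0.01 and omission of each array. The members and gene lists were chosen with earlier results of these data known, and the SAUR list was added after values were seen. Lists were matched by locus tag or by words in gene symbols and synonyms, so a list can miss genes of its group. Genes named were the first 12 by margin, the 5 largest and 5 smallest ein2/ore3 minus Col differences at 2 DAT, up to 4 members per list, and 3 genes on each side of the margin. Other members (among them IAA1, IAA19, AXR3, LAX2, GASA6, KDR, DREB1A, COR15B, ESP, SWEET13, XCP2, AT5G48900, AT4G24780, AT3G16370, AT14A, AT5G44680, TPPE, AT1G17200 and the neighbouring pairs on chromosomes 2 and 4) and the SAUR genes that are not members were named after their values were seen. Symbols came from RefSeq (TAIR10.1), matched for all 82 members; that table served for naming and for neighbourhood, and family names came from the study's annotation. Promoter and protein sequences were not used here.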

Additional observations from a re-analysis of the deposited data

Results flagged for a closer look

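The change between 1 and 2 DAT differed between ein2/ore3 and Col for 9 members by the interaction test (limma, adjusted over all genes, where 0.242% of all genes passed in that direction). The contrast is the 1 to 2 DAT change in ein2/ore3 minus that in Col, so a positive value means that ein2/ore3 lost less, or gained more, in that day. The values were 2.22 ± 0.44 for RGF9 (adjusted p = 0.0377), 2.68 ± 0.46 for EXPA8 (adjusted p = 0.0182), 2.30 ± 0.48 for EXPA11 (adjusted p = 0.0468), 2.57 ± 0.33 for PRP4 (adjusted p = 0.00237), and 3.80 ± 0.80 for SAUR23 (adjusted p = 0.0488). The others were 3.05 ± 0.47 for AT5G48900, a pectin lyase-like gene (adjusted p = 0.00917), 2.76 ± 0.37 for GASA6 (adjusted p = 0.00311), 2.35 ± 0.35 for AT3G16370, a GDSL lipase family gene (adjusted p = 0.0067), and 2.48 ± 0.43 for LHCB2.3 (adjusted p = 0.0175). The part of the Col fall that came in the second day varied among these genes. SAUR23 in Col had changed from 0 DAT by -0.215 at 1 DAT and -4.215 at 2 DAT. RGF9 had changed by -5.33 and -7.88, so most of its fall came in the first day. PRP4 had changed by -1.36 and -4.385, and by -7.945 at 3 DAT. Of these calls, that of PRP4 held in every alternative (adjusted p up to 0.0396). Those of GASA6 and AT3G16370 were lost only in a fit of the 12 arrays of 1 and 2 DAT, and that of AT5G48900 there and without Col at 2 DAT replicate 1. The other 5 were lost in 6 to 21 alternatives each.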

How the results depend on the processing

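The rule gave 82 members with the summed intensities and with quantile normalization (81 shared), 81 with median centring and 78 without the dimmest 25% of genes, and between 73 (without ein2/ore3 at 3 DAT replicate 1) and 98 (without its replicate 2) when an array was left out. A margin of 1 gave 132 and a margin of 2 gave 52. With the replicate number as a block, the members that passed were 75 and 81 for ein2/ore3 minus Col at 1 and 2 DAT, 68 and 77 for ein2/ore3 minus ahk3/ore12, 9 and 51 for ahk3/ore12 minus Col, and 13 for the change from 1 to 2 DAT, so the block moved none of these counts by over 1.5 times.

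Leaving out 1 array gave 65 to 74 and 77 to 81 members for ein2/ore3 minus Col, 47 to 71 and 38 to 75 for ein2/ore3 minus ahk3/ore12, 0 to 10 and 24 to 57 for ahk3/ore12 minus Col, and 4 to 13 for the change from 1 to 2 DAT. For ahk3/ore12 minus Col at 1 DAT, 4 members passed with median centring, 1 with only the 12 arrays of 1 and 2 DAT, 2 with only the genotypes compared and 1 at FDR 0.01. For the change from 1 to 2 DAT, 1 passed with only those 12 arrays and 4 at FDR 0.01. What made these counts differ from those of the main fit was not tested. Of the calls at 2 DAT, 76 of 81 for ein2/ore3 minus Col, 38 of 75 for ein2/ore3 minus ahk3/ore12 and 24 of 48 for ahk3/ore12 minus Col held in every alternative.

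Directions reversed only in values that had not passed. For AT3G57020, ein2/ore3 minus Col at 1 DAT was -0.32 without Col replicate 2 and 1.01 without Col replicate 1 (0.35 with all arrays), and ahk3/ore12 minus Col at 2 DAT was -0.005 with median centring, -0.12 without Col replicate 2 and -0.14 without ahk3/ore12 replicate 2. For AT3G59480 at 2 DAT, ein2/ore3 minus Col was 0.0029 with quantile normalization and 0.19 without ein2/ore3 replicate 2, and ein2/ore3 minus ahk3/ore12 was 0.12 and 0.34, while at 1 DAT ein2/ore3 minus ahk3/ore12 was -0.015 without ahk3/ore12 replicate 1. For AGP4, ein2/ore3 minus ahk3/ore12 at 1 DAT was 0.23 without ahk3/ore12 replicate 1 and 0.03 without ein2/ore3 replicate 2, and at 2 DAT it was -0.03 without ahk3/ore12 replicate 1. The causes were not tested. The planned description of promoter motifs was not run.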

Other observations

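Some members dipped on the first day and later recovered in part, in ein2/ore3 and to varying extents in Col. AT2G40130 (SMXL8) in ein2/ore3 started at 12.43 and 12.40, had 9.37 and 9.67 after a day, then 9.98 and 10.14, and 10.62 and 11.05 by 3 DAT. In Col it had 12.45 and 12.71, then 8.04 and 7.97, 8.66 and 8.66, and 9.02 and 8.83. AT3G57020 in ein2/ore3 had 13.61 and 13.12, then 9.60 and 9.19, 10.15 and 10.18, and 11.42 and 10.96, against 13.77 and 13.44, then 9.71 and 8.39, 9.02 and 8.70, and 9.72 and 9.46 in Col. AT4G29905 had 11.55 and 11.89 in ein2/ore3 at 1 DAT, against 7.04 and 8.13 in ahk3/ore12 and 7.05 and 7.08 in Col. By 3 DAT it had 12.72 and 12.42 in ein2/ore3, against 9.68 and 10.05 in ahk3/ore12 and 8.58 and 8.51 in Col. The first pair gained more after 1 DAT in ein2/ore3 than in Col. AT4G29905 gained more in Col than in ein2/ore3, and most in ahk3/ore12. These genes were picked after their values were seen, and the recovery uses the 3 DAT arrays, so it was not tested.

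The reverse rule, with ahk3/ore12 as the genotype that kept its level, gave 20 genes. Of these, 15 were higher in ahk3/ore12 than in Col at 2 DAT (limma, FDR 0.05), where 8.85% of all genes were higher. At that time 14 were lower in ein2/ore3 than in ahk3/ore12, where 6.47% of all genes were lower. The arrays of 0 and 3 DAT chose these genes on the same pairs of genotypes.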
